A study of Mus musculus with 2 samples.

Results

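The miRNAs described here are 7 that are known as marks of blood cells: mmu-miR-144, mmu-miR-451 and mmu-miR-486 for the erythroid lineage, and mmu-miR-142-3p, mmu-miR-142-5p, mmu-miR-150 and mmu-miR-223 for white blood cells. The prefix mmu, for mouse, is left out below. They were chosen by name from the 696 mouse miRNAs on the array, each name being matched exactly, and all 7 were found on both arrays. Embryonic skin and mammary tissue is crossed by vessels, so RNA from a dissected region can hold RNA of circulating and tissue-resident blood cells.
One array holds RNA of the 3rd mammary gland (here the gland), and the other RNA of the inter mammary gland region (here the flank), the tissue separating it from the 4th gland. Both came from untreated ICR mouse embryos at E13.5, and 100 ng of total RNA per region was labelled with Cy3 and read on 1 Agilent 1-colour miRNA array. How many embryos each RNA came from, and whether blood was washed from the tissue, is not given in the sources used here. Each region has 1 array, so no difference could be checked against a replicate. For the same reason the regions were not compared by a statistical test. Every SD given here is a spread over spots and is technical only. The SD of a signal is over spots of 1 array. The SD of a log2 ratio, or of a difference between such ratios, comes from spots at matching positions on both arrays.

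A miRNA is a short RNA that pairs with target transcripts mainly through its seed, bases 2 to 8, and lowers their output. miR-144 and miR-451 are cut from one transcript that the erythroid factor GATA1 switches on, and they are known for their abundance in red cell precursors. miR-451 is also known for protecting these cells from oxidative stress. miR-486 lies in an intron of Ank1, is abundant in red cells and is also made in striated muscle. The 2 strands of the miR-142 hairpin are made in nearly all blood lineages, miR-223 is known from granulocytes and monocytes, and miR-150 from mature lymphocytes.

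A miRNA counted as detected in a region if the scanner software placed over 50% of the spots of any of its probes well above background. By this rule 5 of the 7 blood cell miRNAs were detected in both regions, all 3 erythroid miRNAs and 2 of the 4 white blood cell miRNAs, miR-142-3p and miR-223. miR-142-5p and miR-150 were detected in neither region. Of all 696 miRNAs, 284 (40.8%) were detected in both regions. No miRNA spot was saturated on either array.

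To compare the regions, the signals of an array were divided by the 75th percentile over those probes that both arrays detected (786.4 intensity units for the gland, 718.5 for the flank). None of the 5 detected blood cell miRNAs differed by 1.5-fold or more: 0 were higher and 0 lower at that size, and their folds lay between 1.36-fold higher (miR-451) and 1.31-fold lower (miR-486) in the gland. Across the 284 miRNAs detected in both regions, 6 (2.11%) were at least 1.5-fold higher, 26 (9.15%) at least 1.5-fold lower and 32 (11.3%) either. The median log2 ratio of the 5 was -0.060, beside 0.048 over all 284. The erythroid miRNAs had a median of 0.15 and the detected white blood cell miRNAs one of -0.083. The single ratios of all 284 ran from -0.14 at the lower quartile to 0.22 at the upper. Of the blood cell miRNAs, miR-451 (0.44) lay above these quartiles and miR-486 (-0.39) below them. A scaling that divides an array by one number shifts every log2 ratio by the same amount: the median over all 284 was 0.18 when the arrays were left unscaled and 0.21 when the 75th percentile was taken over all probes, and in the latter case 19 miRNAs were higher and 22 lower. The difference from that median is therefore given beside the ratio of each blood cell miRNA, and the signs of the other ratios below hold for the main scaling. In a bulk sample such as this, fewer blood cells and less of a miRNA per cell cannot be told apart.

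**Figure D1:**
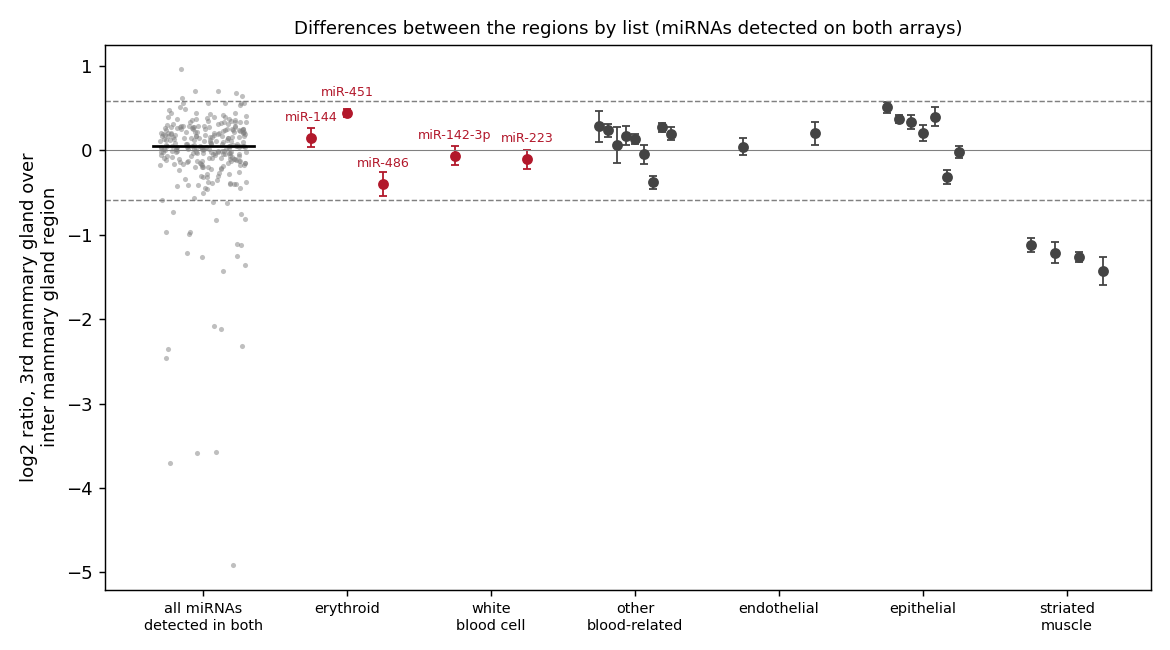
The vertical axis gives the log2 ratio of the gland over the flank after scaling, for all 284 miRNAs detected in both regions (grey points, with their median as a bar) and for the detected members of each list (points with the SD over position-matched spots). Dashed lines mark 1.5-fold: all 5 blood cell miRNAs lie between them, miR-451 highest at 0.44 and miR-486 lowest at -0.39, while the 4 striated muscle miRNAs lie below.

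miR-451 was higher in the gland. Its first probe gave a signal before scaling of 4566 ± 82.7 (SD over 9 spots) in the gland and 2918 ± 66.6 (SD over 9 spots) in the flank. The second gave 6798 ± 540 (SD over 10 spots) and 4726 ± 229 (SD over 10 spots). For both probes the dimmest spot of the gland was brighter than the brightest spot of the flank, 4402 against 3015 for the first and 6046 against 4978 for the second. After scaling the difference was 1.36-fold, a log2 ratio of 0.44 with an SD of 0.048 over 18 spots at matching positions, and all 18 of these spots were brighter in the gland. The probes gave 1.43-fold and 1.31-fold. This was the 16th highest ratio among the 284 miRNAs, and it lay 0.39 above their median on the log2 scale. The ratio crossed 1.5-fold with 3 other treatments of the signal: 1.52-fold with the 75th percentile of all probes, 1.52-fold in the deposited table without scaling, and 1.73-fold after quantile normalization.

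miR-144, the partner of miR-451 on the same transcript, differed less between the regions. In the gland its probes gave signals before scaling of 88.1 ± 5.65 and 99.3 ± 5.79 (SD over 10 spots each), and in the flank 71.2 ± 4.55 and 82.8 ± 3.60 (SD over 10 spots each). The spots of the regions did not overlap before scaling, with 82.0 as the lowest spot of the gland against 76.6 as the highest of the flank for the first probe, and 90.7 against 88.2 for the second. The array of the gland was brighter as a whole, with a median log2 ratio of 0.18 over all 284 miRNAs before scaling. Once scaled, the spots of the regions overlapped for both probes. How many of all miRNAs had spots as separate as those of miR-451 or miR-144 was not counted. After scaling the difference was 1.11-fold, a log2 ratio of 0.15 with an SD of 0.11 over 20 matched spots, of which 17 were brighter in the gland. It stood at rank 103 from the top of the 284 ratios, 0.11 above their median. Being the middle of the 3 erythroid ratios, it is also the value to which other miRNAs were compared for likeness: miR-151-5p (0.154), miR-152 (0.153) and miR-99b (0.156) had the closest log2 ratios, over the 2 arrays only.

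miR-486 went the other way. Its first probe gave a signal before scaling of 57.2 ± 8.57 (SD over 10 spots) in the gland and 66.9 ± 4.51 (SD over 9 spots) in the flank, and its second 36.5 ± 4.58 (SD over 10 spots) and 45.5 ± 4.44 (SD over 7 spots). Before scaling the spots of the regions overlapped for both probes, from 41.7 to 71.8 against 58.9 to 72.1 for the first and from 27.9 to 42.2 against 39.5 to 52.8 for the second. After scaling miR-486 was 1.31-fold lower in the gland, a log2 ratio of -0.39 with an SD of 0.14 over 16 matched spots, all 16 of them dimmer there. It ranked 37 from the bottom of the 284 ratios and lay 0.44 below their median.

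The 3 erythroid miRNAs had different ratios on these 2 arrays. A difference between the log2 ratios of 2 miRNAs does not depend on any scaling that divides an array by one number. miR-451 exceeded miR-486 by 0.84 on this scale, or 1.78-fold, with an SD over spots of 0.15. The spots say nothing of how this gap would vary between RNA samples. The gap also rests on miR-486, the dimmest of the detected members. miR-451 exceeded miR-144 by 0.29 with an SD of 0.12, and miR-144 exceeded miR-486 by 0.55 with an SD of 0.18. Across all processing alternatives that gave both values, the difference of miR-451 and miR-486 stayed between 0.62 and 1.04, and that of miR-451 and miR-144 between 0.26 and 0.50.

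The detected white blood cell miRNAs had ratios close to 0. Before scaling, miR-142-3p gave 267 ± 26.3 (SD over 10 spots) in the gland and 260 ± 15.1 (SD over 10 spots) in the flank on its first probe, and 166 ± 13.2 (SD over 10 spots) and 152 ± 6.32 (SD over 9 spots) on its second. The spots of the regions overlapped on both probes. After scaling its log2 ratio was -0.060 with an SD of 0.12 over 19 matched spots, 6 brighter and 13 dimmer in the gland, so the difference was smaller than the spread between spots. It lay 0.11 below the median of the 284 miRNAs.

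miR-223, the myeloid miRNA, gave signals before scaling of 111 ± 9.65 (SD over 10 spots) and 233 ± 26.3 (SD over 10 spots) on its probes in the gland, and 107 ± 5.15 (SD over 9 spots) and 231 ± 18.0 (SD over 10 spots) in the flank. Again the spots overlapped on both probes. Its log2 ratio after scaling was -0.11 with an SD of 0.11 over 19 matched spots, 4 brighter and 15 dimmer in the gland. The probes differed in this: the first had a log2 ratio of -0.069 with an SD of 0.14 over 9 matched spots, 4 of them brighter in the gland, and the second one of -0.12 with an SD of 0.083 over 10 matched spots, all 10 dimmer there. The ratio of miR-223 lay 0.15 below the median of all 284. The sign of the ratios of miR-142-3p and miR-223 turned with the scaling: with none they were 0.070 and 0.025. Relative to the median of the detected miRNAs both stayed below 0 in all 13 settings that gave them a value. Settings that only divide an array by one number had to give the same distance from that median, so they add no separate support. The ratios of miR-142-3p and miR-223 differed from each other by 0.045, with an SD of 0.16 over spots, and that of miR-451 exceeded them by 0.50 and 0.55.

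miR-142-5p, the other strand of the miR-142 hairpin, was near the limit of the array. Before scaling its probes gave 27.5 ± 4.91 (SD over 10 spots) and 26.2 ± 5.32 (SD over 9 spots) in the gland, and 19.5 ± 3.37 (SD over 9 spots) and 20.8 ± 7.04 (SD over 10 spots) in the flank. Of its spots 7 of 19 stood well above background on the array of the gland and 2 of 19 on that of the flank, so it has no fold by the rule used here. All 19 spots of the gland and 9 of 19 of the flank exceeded the brightest negative control of their array. The mean of these controls was 3.81 ± 5.28 (SD over 432 spots, highest 17.3) on the former array and 2.23 ± 5.07 (SD over 428 spots, highest 19.2) on the latter. The scanner software, which judges a miRNA as a whole, called it detected in both regions, with total signals of 35.6 (error 5.97) and 26.2 (error 5.46). With that call and the same scaling the spot signals give a ratio of 1.22, which so near background is not an exact fold. Of its 18 matched spots, 12 were brighter and 6 dimmer in the gland.

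miR-150, the lymphocyte miRNA, gave no signal that these arrays could tell from background. Its probes gave -0.062 ± 3.66 and 7.96 ± 3.59 (SD over 10 spots each) in the gland and -1.88 ± 4.60 and 4.32 ± 6.41 (SD over 10 spots each) in the flank, before scaling. In each region 0 of 20 spots were well above background, and 0 of 20 exceeded the brightest negative control. The opposite strand of its hairpin, miR-150*, was read by 4 further probes and also had 0 spots well above background in either region.

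**Figure D2:**
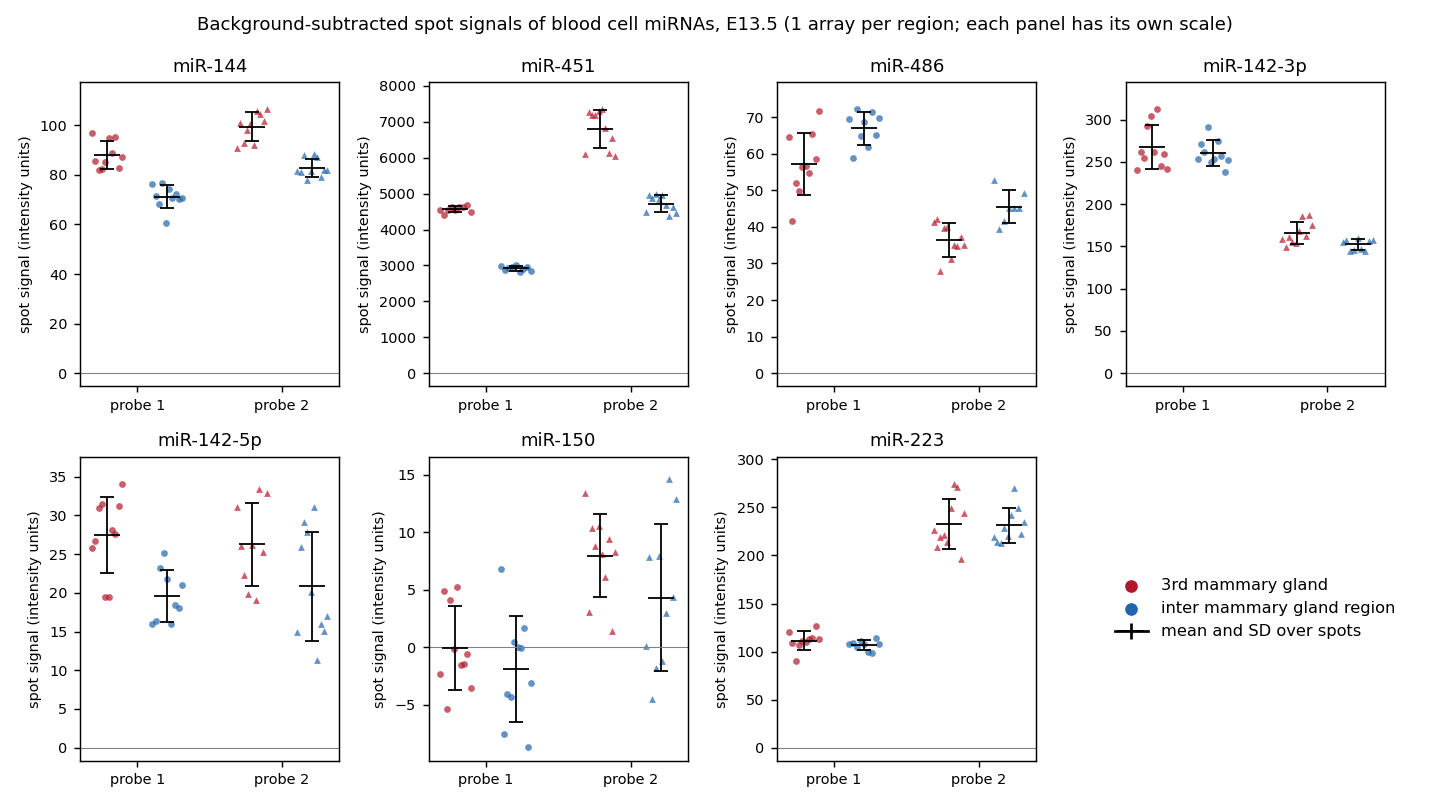
Each point is the background-subtracted signal of 1 spot before scaling, in intensity units, for the 2 probes of each blood cell miRNA, with outlier spots left out; the bars give the mean and SD over spots, and each panel has its own scale. In these signals before scaling the regions separate for miR-451 and miR-144, and overlap for miR-486, miR-142-3p, miR-142-5p and miR-223. The spots of miR-144 overlap once scaled. The spots of miR-150 lie near 0, those of its second probe in the gland all above it.

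The mature sequences are given because the seed sets which transcripts a miRNA pairs with. The table of RefSeq miRNAs used here (build GRCm38.p6) was searched with 1 current name for each of the 7, and 5 matched (miR-486 and miR-150 did not), in each case the strand that the older array name denotes. They are printed 5′ to 3′ with the seed in capitals.
miR-144: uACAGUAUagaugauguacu
miR-451: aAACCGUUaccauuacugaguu
miR-142-3p: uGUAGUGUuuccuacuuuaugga
miR-142-5p: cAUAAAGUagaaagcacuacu
miR-223: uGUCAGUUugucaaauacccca
The 5 sequences have 5 different seeds, and none of these seeds stands at bases 2 to 8 of any other of the 1738 mature miRNAs of the table. No 2 of these 5 thus form a seed family.

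The hairpins of miR-144 and miR-451 lie 99 bases apart on the plus strand of chromosome 11, at chr11:78073005-78073070 and chr11:78073170-78073241 (GRCm38.p6). They are shown because 2 miRNAs of one transcript gave different ratios. Capitals mark the mature strand that the array reads.
Mir144: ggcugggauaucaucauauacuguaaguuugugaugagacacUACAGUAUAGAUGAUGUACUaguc
Mir451a: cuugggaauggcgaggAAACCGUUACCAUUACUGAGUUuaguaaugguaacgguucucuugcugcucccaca
In the miR-144 hairpin the mature strand lies in the 3′ arm. In the miR-451 hairpin it starts in the 5′ arm and runs into the loop, and as background this short hairpin is known to be cut by Ago2 in place of Dicer. The miR-142 hairpin, at chr11:87756864-87756927 on the plus strand, carries both of the strands measured here.
Mir142: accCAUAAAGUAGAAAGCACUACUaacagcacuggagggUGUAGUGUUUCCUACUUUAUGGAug

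A wider list held 16 miRNAs with roles in blood cells. Of these, 9 were detected in both regions, 1 (miR-342-5p) in the gland only, with signals before scaling of 13.6 and 4.92 in the flank, too dim to show it higher in the gland (its scaled signal was 0.461 times the lowest detected probe of the flank), and 6 in neither, and 0 of the 9 were past 1.5-fold in either direction, a count near the background of 11.3%. The median log2 ratio of the 9 was 0.18, beside 0.048 over all 284. The largest differences were those of miR-221, which restrains the stem cell factor receptor Kit in erythroid precursors and was 1.30-fold lower in the gland (signals before scaling of 128 and 152 in the flank), and miR-146a, a brake on innate immune signalling, at 1.22-fold higher (39.1 and 29.3). The value of miR-146a is less sure, since it averages in a probe that was not detected: only 9 of its 19 matched spots belong to a probe detected in both regions, and the SD over these was 0.18 beside its log2 ratio of 0.29. miR-107 was 1.21-fold higher (1879 and 1418) and miR-342-3p 1.18-fold higher (539 and 417). Of the macrophage and lymphocyte miRNAs on the list, miR-155, miR-146b, miR-511 and miR-147 were detected in neither region.

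Markers of other cells were set beside these values. Both strands of miR-126, which endothelial cells make, were detected in both regions, with log2 ratios of 0.046 for miR-126-3p (signals before scaling of 1999 in the gland and 1769 in the flank) and 0.21 for miR-126-5p. Their summed scaled signal was 2.75 and 2.64, with miR-126-3p the brighter. miR-143, made in smooth muscle, had a log2 ratio of 0.25, and miR-145 was not detected. All 7 epithelial miRNAs were detected in both regions and 0 passed 1.5-fold, beside 32 (11.3%) of all 284. They had a median log2 ratio of 0.34 and a summed scaled signal of 13.9 in the gland and 13.3 in the flank, with miR-205 the brightest. The 5 of the miR-200 family, which keeps epithelial identity, had ratios from 0.21 (miR-141) to 0.51 (miR-200a). The other 2 were lower, miR-205 at -0.021 (8 of 18 matched spots brighter in the gland) and miR-203 at -0.31 (0 of 20).
All 4 striated muscle miRNAs were at least 1.5-fold lower in the gland, beside 26 (9.15%) of all 284, with log2 ratios from -1.12 (miR-1) to -1.43 (miR-206), a summed scaled signal of 2.09 against 5.02, and miR-133b the brightest. Their ratios have the sign of that of miR-486, which muscle also makes. The part of muscle in the value of miR-486, and of the number of vessels or the blood they held in the value of miR-451, was not tested. miR-122, the liver miRNA, was not detected in either region.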

How the data were processed

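Total RNA of each region was hybridized to 1 Agilent miRNA array, both on 1 slide and in 1 scan. The authors quantified the images with Agilent's Feature Extraction, for which the file headers give version 10.7.3.1, and deposited background-subtracted spot intensities, on a linear scale and not scaled between arrays, and a table of total signals per miRNA with 0.1 for those not called detected. GeneSpring GX was used for normalization according to the methods; its settings are not given in the sources used here.

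Control spots and outlier spots were left out, the latter being 1.67% of miRNA spots for the gland and 2.51% for the flank. Signals were averaged per probe, scaled between arrays, and averaged per miRNA. A miRNA detected on 1 array has only a bound, its signal over the higher of its own dim signal and the lowest single detected probe (30.7 for the gland and 27.1 for the flank before scaling). The SD of a log2 ratio is that of spots at matching positions within a probe. 38.1% of miRNA spots were well above background on each array. The steps were tested on simulated spots.

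The miRNAs described singly were the 7 members, other strands of their hairpins, marker lists and the 3 nearest ratios to the erythroid median. From the wider list they were the 4 largest differences and the 1 miRNA detected in the gland only. Members and lists were chosen with earlier results of these data known. Alternatives covered scaling, signal column, normexp (offset 50), detection, outlier spots, probes, dim miRNAs and the threshold. normexp was run in limma 3.58.1 under R 4.3.3, and all else in Python 3.11.15 (numpy 2.4.6, pandas 2.3.3, matplotlib 3.10.9).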

Additional observations from a re-analysis of the deposited data

How the results depend on the processing

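With 1 array per region, differences between RNA samples or dissections cannot be separated from differences between the regions, and the number of arrays limits every value. No paired analysis was possible because there is a single array for each of the regions. Of 14 alternatives, 3 put 1 blood cell miRNA (miR-451) at least 1.5-fold higher, against 0 in the main setting: the 75th percentile of all probes, quantile normalization and the deposited table without scaling. Over all miRNAs detected in both regions the number higher rose as well. It was 6 of 284 in the main setting and, in the order just given, 19 of 284, 14 of 284 and 31 of 323. The number of blood cell miRNAs lower past the threshold stayed at 0 under all 14. The 2-fold threshold could give nothing else, nor could leaving out dim miRNAs, since miR-451 alone then remained. Over all miRNAs detected in both regions, 26 of 284 (9.15%) were at least 1.5-fold lower in the main setting. With dim miRNAs left out it was 13 of 142, and with scaled total signals 38 of 323. A count of 0 among 5 is near these shares. Detection gave 5 of the 7 in each region, and 6 with the software's own call or with its total signals. The median log2 ratio of the detected members, -0.060, moved by more than the SD over spots (0.11) with no scaling (0.070), the 75th percentile of all probes (0.099), the median of the probes (0.058), quantile normalization (0.075) and the deposited table (0.21), and to 0.44 with dim miRNAs left out, since miR-451 alone then remained. Relative to the median of all detected miRNAs, miR-451 lay 0.38 to 0.62 above it and miR-486 0.22 to 0.52 below it in the alternatives that gave them a value. A scaling that divides an array by one number cannot change these distances. With normexp the log2 ratio of miR-486 narrowed to -0.19 and that of miR-144 to 0.059, while that of miR-451 was 0.43. Its offset adds 50 to every signal, beside signals before scaling of 46.8 in the gland and 56.2 in the flank for miR-486. The part of the offset in these changes was not tested. Signal over background limits miR-142-5p and miR-150. It also bears on miR-486, the dimmest of the detected members. The second probe of miR-486 gave 36.5 in the gland before scaling, where the lowest detected probe of any miRNA gave 30.7.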
